A study of Mus musculus with 9 samples.

Results

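The cyclin-dependent kinase inhibitors of the mouse retina were followed through 7 genes: Cdkn1a, Cdkn1b, Cdkn1c, Cdkn2a, Cdkn2b, Cdkn2c and Cdkn2d. They were found by symbol in a table of counts that lists 26683 genes, and each of the 7 symbols matched 1 row. RNA of whole retina was sequenced at postnatal day 17 from 3 groups of 3 libraries. The group named Normoxic holds retinas of mice at normal oxygen. The group named PBS holds retinas of mice that went through oxygen-induced retinopathy (OIR) and were injected into the vitreous with phosphate-buffered saline at postnatal day 15. The group named Gel holds OIR retinas injected with the PCC1/PHCF hydrogel on that day. In the OIR model, retinal vessels stop growing under high oxygen, and abnormal ones form once the animals are back at room air. The hydrogel carries PCC1 (procyanidin C1, a plant polyphenol), named in the series title for senolysis, the removal of senescent cells. The labels name no strain, do not say that Normoxic mice were injected, give no gel without PCC1, and do not tell if replicates are separate animals. Oxygen history and injection therefore cannot be told apart in PBS versus Normoxic, nor drug and carrier in Gel versus PBS, and p-values measure only the spread between these samples.

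Cyclin-dependent kinase inhibitors are proteins that bind cyclin-dependent kinases or their cyclins and hold back the cell cycle. The Cip/Kip family, p21 (Cdkn1a), p27 (Cdkn1b) and p57 (Cdkn1c), acts on many cyclin-kinase complexes. The Ink4 family, p16 (Cdkn2a), p15 (Cdkn2b), p18 (Cdkn2c) and p19 (Cdkn2d), binds CDK4 and CDK6, the kinases that work with D cyclins to release the retinoblastoma protein's brake on entry into S phase. In the developing retina p27, p57 and p19 are known for the exit of progenitors from the cycle and for keeping neurons and glia out of it, while p21 and p16 are in wide use as markers of senescence, a lasting arrest in which cells secrete inflammatory and matrix-modifying proteins.

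Levels differed widely among the 7 genes. On the scale of FPKM (fragments scaled by gene length and library total) the order of levels was Cdkn1b, Cdkn2d, Cdkn1c, Cdkn1a, Cdkn2c, Cdkn2b and Cdkn2a from high to low, and it was the same in all 9 libraries. Normoxic FPKM averaged 27.9 for Cdkn1b, 22.5 for Cdkn2d, 18.2 for Cdkn1c, 4.09 for Cdkn1a, 2.45 for Cdkn2c, 0.191 for Cdkn2b and 0.0286 for Cdkn2a. In mean Normoxic FPKM the genes of p27, p19 and p57 thus stood above 86.9% or more of all listed genes, whereas the p16 gene stood above 24.6%. In Normoxic retinas no gene's range over libraries touched that of its neighbour in the order. In PBS the ranges of Cdkn2d (19.9 to 29.0 FPKM) and Cdkn1c (15.5 to 22.5) overlapped, as did those of Cdkn1c and Cdkn1a (9.92 to 16.6). In Gel the ranges of Cdkn1c (13.0 to 19.5 FPKM) and Cdkn1a (11.7 to 14.2) overlapped. Of the summed FPKM of the 7 genes, the share of Cdkn1a was 5.43% in Normoxic retinas, 14.3% with PBS and 14.9% with Gel.

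**Figure D1:**
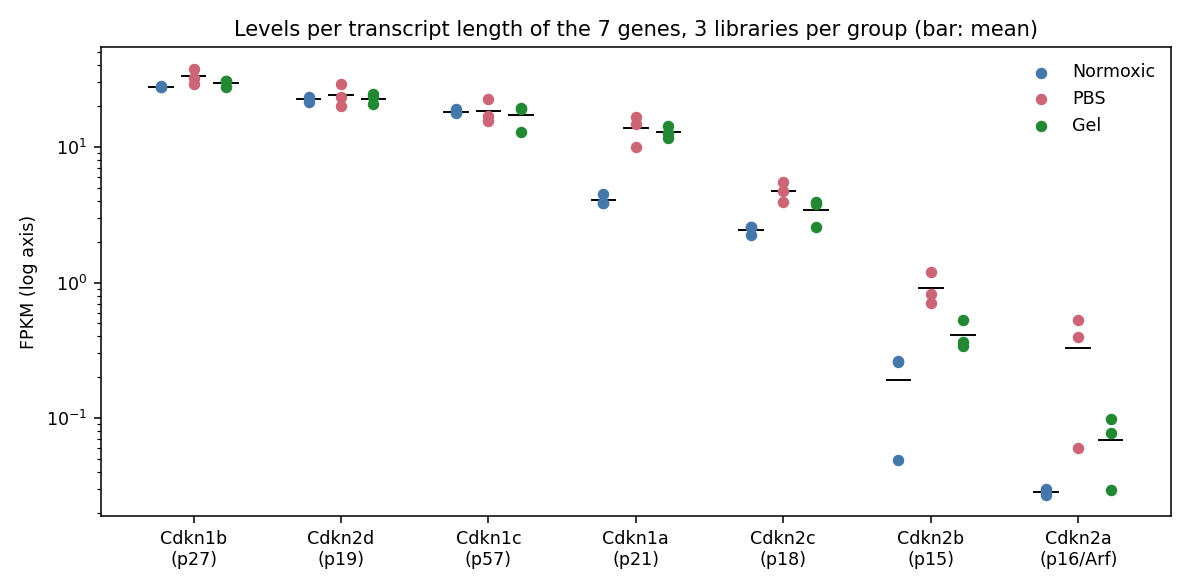
FPKM of the 7 genes on a log axis, with the 3 libraries of each group as points and the group mean as a bar, ordered by level. Cdkn1b, Cdkn2d and Cdkn1c keep similar levels in the 3 groups, and Cdkn1a lies near 4.09 FPKM in Normoxic and at 13.7 and 12.8 in PBS and Gel.

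Differences between groups were tested on counts with the quasi-likelihood test of edgeR over the 17362 genes that passed its filter on low counts, and adjusted over all of them. A gene is called where the adjusted p is under 0.05, and values per library are CPM, counts scaled by the effective library size. Of the 7 genes 6 passed the filter and Cdkn2a did not. The libraries held 29324142 to 35663470 counts. PBS 3 stood apart from the other libraries in that ribosomal protein genes took 2.86% of its counts against 1.16% to 1.78% elsewhere. Gene length was correlated with each library's deviation in log2 CPM from the other libraries of its group. This gave 0.32, 0.41 and -0.49 for PBS 1, 2 and 3, and 0.32, -0.29 and -0.2 for Gel 1, 2 and 3. The measure is relative to the group, so opposite signs within a group are built in. Rod markers, the transcripts of the most abundant retinal neuron, summed to 48600 CPM or more in every library, as fits the label retina. Since these are bulk samples, fewer cells of a type and less RNA per cell cannot be told apart.

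In PBS versus Normoxic, 3 of the 6 tested genes were called, all higher: Cdkn1a, Cdkn2b and Cdkn2c. Over all tested genes 6.34% were called in that comparison, and 4.31% were called higher. Cdkn1a rose 3.4-fold, Cdkn2b 4.7-fold and Cdkn2c 1.95-fold. The p27, p57 and p19 genes, which make up most of the inhibitor RNA, were not called. In Gel versus PBS none of the 6 genes was called, where edgeR called 0.0% of all tested genes. At an unadjusted p under 0.05, 2 of the 6, Cdkn2b and Cdkn2c, were lower in Gel, against 3.77% of all tested genes, and DESeq2 also called 0 of the 6. DESeq2 called 60 genes in all there. In Gel versus Normoxic only Cdkn1a was called, and it was higher, where 1.41% of all tested genes were called and 1.12% were called higher. PBS and Normoxic libraries each serve in 2 of the 3 comparisons.

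**Figure D2:**
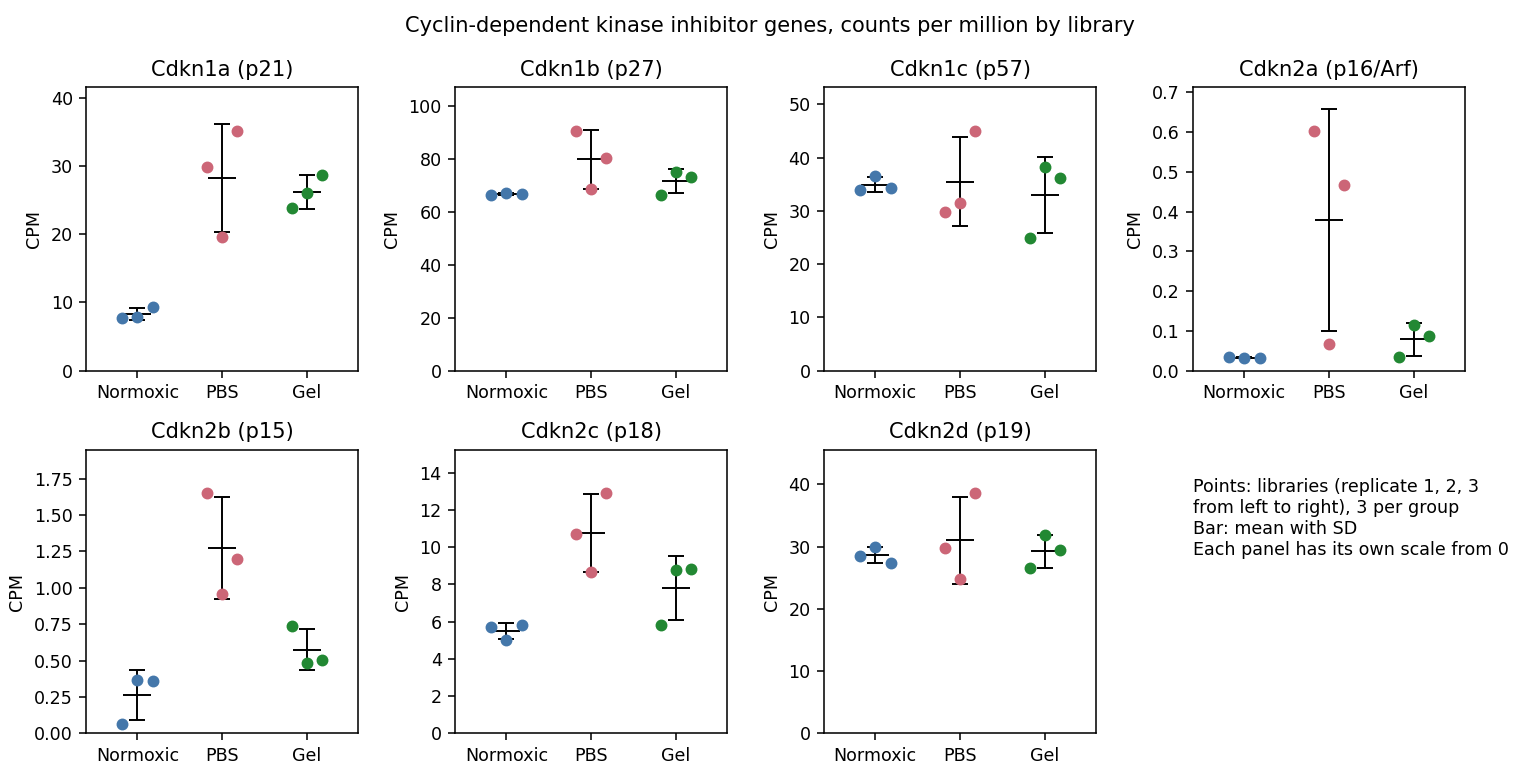
CPM of each gene in each library (points, replicates 1 to 3 from left to right), with the group mean and SD, each panel on its own scale from 0. All PBS libraries lie above all Normoxic libraries for Cdkn1a, Cdkn1b, Cdkn2a, Cdkn2b and Cdkn2c, and PBS 2 is the lowest PBS library for 6 of the 7 genes. For Cdkn2a, PBS 2 held 2 counts against 1 in each Normoxic library.

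**Figure D3:**
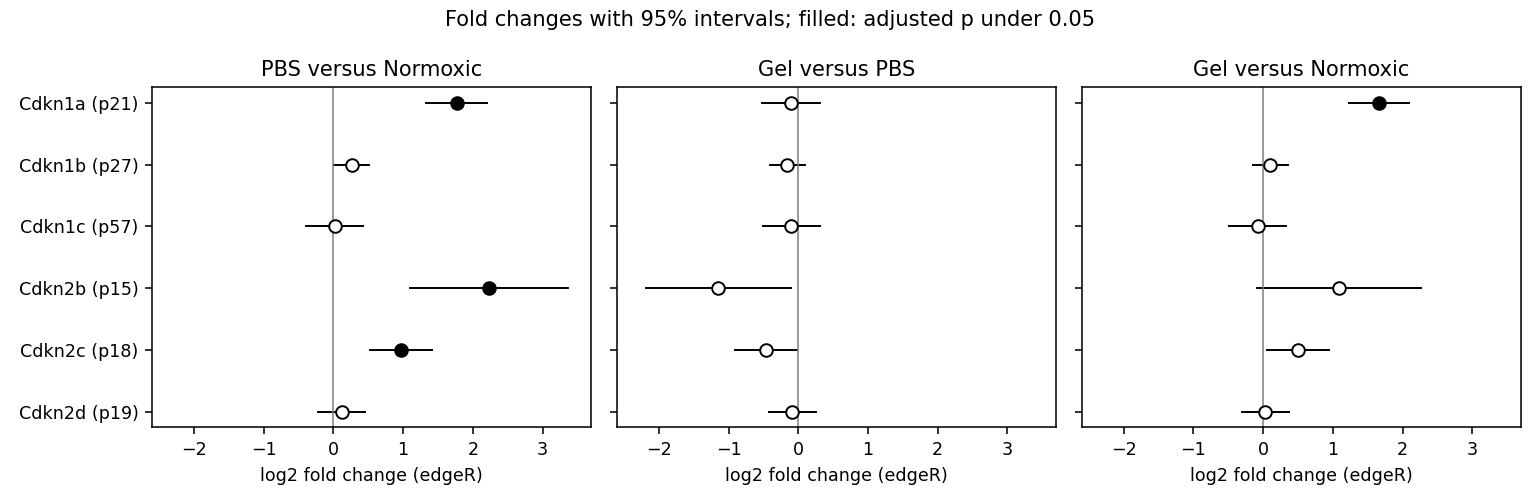
Log2 fold changes from edgeR (points) with 95% intervals (lines) for the 6 tested genes in the 3 comparisons, filled where the adjusted p is under 0.05. Filled points are Cdkn1a, Cdkn2b and Cdkn2c in PBS versus Normoxic and Cdkn1a in Gel versus Normoxic.

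Cdkn1a (Entrez gene 12575) encodes p21, which p53 switches on after DNA damage and which other stress and growth signals also raise. Normoxic libraries held 7.74, 7.87 and 9.27 CPM, PBS libraries 29.8, 19.6 and 35.2, and Gel libraries 23.8, 26.1 and 28.7. Every PBS and Gel library thus lay above every Normoxic one, and the Gel libraries lay within the span of the PBS libraries. The mean was 8.29 ± 0.846 CPM in Normoxic, 28.2 ± 7.89 in PBS and 26.2 ± 2.43 in Gel (SD, n = 3 each). The log2 fold change of PBS versus Normoxic was 1.77 ± 0.20 (SE), which is 3.4-fold with a 95% interval of 2.52 to 4.59 (edgeR adjusted p = 0.000743). Gel versus Normoxic gave 3.16-fold, with an interval of 2.34 to 4.27 (edgeR adjusted p = 0.00306). Between Gel and PBS the fold was 0.929 with an interval of 0.698 to 1.24 (edgeR adjusted p = 0.987). Without PBS 3 the log2 fold change of PBS versus Normoxic was 1.57 (edgeR adjusted p = 0.000231), and that of Gel versus PBS turned from -0.11 to 0.09. Both comparisons with Normoxic kept their call under all alternatives tried.

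The reference annotation gives Cdkn1a a pair of transcription starts 2790 bases apart. Their upstream letters are shown because Cdkn1a was the one gene of the 7 called in both comparisons with Normoxic, and because a gene-level count pools both starts. The sequences run 5′ to 3′ over the 150 bases before each start, from the RefSeq table of build GRCm38.p6, which differs from the build named for the counts, GRCm39. In the first, on the plus strand at chr17:29090829-29090978, capitals mark 2 CATG cores of a p53-like element (CATGNNNNNNCATG). In the second, on the plus strand at chr17:29093619-29093768, capitals mark 2 GC boxes (GGGCGG).
Cdkn1a start 1: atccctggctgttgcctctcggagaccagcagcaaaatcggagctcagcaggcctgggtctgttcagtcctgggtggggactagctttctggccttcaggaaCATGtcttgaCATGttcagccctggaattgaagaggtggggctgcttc
Cdkn1a start 2: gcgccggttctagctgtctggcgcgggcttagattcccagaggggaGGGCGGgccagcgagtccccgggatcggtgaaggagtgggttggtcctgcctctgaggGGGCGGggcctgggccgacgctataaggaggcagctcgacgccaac
The p53-like element lay 48 to 35 bases before start 1. It was searched for after the letters had been seen, on both strands, and 0.712% of the 32851 windows of 300 bases in the table hold it. GC boxes are found in 35.7% of windows. A letter match is not evidence of binding, and which start the counts come from was not measured.

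Trp53cor1, a long noncoding RNA gene that lies next to Cdkn1a and is known as lincRNA-p21, overlapped between all groups. It averaged 0.37 CPM in Normoxic, 0.385 in PBS and 0.35 in Gel, with 34 to 37 summed counts per group. Rab44, the neighbour on the other side, averaged at most 0.143 CPM in any group. Among the genes whose log2 CPM followed Cdkn1a most closely over the 9 libraries were Adgrf5 (r = 0.984), an adhesion receptor gene, and Igfbp3 (r = 0.978), an insulin-like growth factor binding protein gene. These are correlations over 9 libraries of 3 groups, out of 13507 genes compared, and they hold the group differences and the traits the libraries share. After group means were taken out the closest were Pigk, Hbb-bs and Gper1, with r of 0.972 to 0.985, none of them in the first set.

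Cdkn1b (Entrez gene 12576) encodes p27, which holds differentiated cells out of the cycle and is degraded through Skp2 when cells divide. It stood at 66.3, 67.0 and 66.9 CPM in Normoxic, at 90.7, 68.5 and 80.5 in PBS, and at 66.5, 74.9 and 73.2 in Gel. The 3 PBS libraries lay above the Normoxic ones, PBS 2 only just, and Gel overlapped both. The log2 fold change of PBS versus Normoxic was 0.26 ± 0.11, with an interval of 0.01 to 0.51, and was not called (edgeR adjusted p = 0.217). For Gel versus PBS it was -0.16, with an interval of -0.41 to 0.09. The closest gene over the 9 libraries was Egln3 (r = 0.971), an oxygen-dependent prolyl hydroxylase gene that HIF raises in hypoxia.

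Lockd, a long noncoding RNA gene just downstream of Cdkn1b, was measured with few counts. Normoxic libraries held 0.167, 0.523 and 0.0657 CPM of it, those of PBS 0.509, 0.894 and 0.76, and those of Gel 0.134, 0.485 and 0.383. The PBS libraries lay above all Gel libraries but overlapped Normoxic. Neither the log2 fold change of 1.48 ± 0.65 in PBS versus Normoxic (edgeR adjusted p = 0.221) nor that of -1.08 ± 0.63 in Gel versus PBS (edgeR adjusted p = 0.987) was called.

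Cdkn1c (Entrez gene 12577) encodes p57, from an imprinted gene expressed mainly from the maternal copy. It stood at 34.0, 36.5 and 34.3 CPM in Normoxic, at 29.8, 31.5 and 45.1 in PBS, and at 24.9, 38.2 and 36.1 in Gel. The groups overlapped, and PBS 3 was the highest and Gel 1 the lowest of all libraries. The log2 fold change of PBS versus Normoxic was 0.02 ± 0.18, with an interval of -0.39 to 0.43 (edgeR adjusted p = 0.955). Without PBS 3 it was -0.19, and Gel versus PBS moved from -0.10 to 0.11.

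Kcnq1, a potassium channel gene in the same imprinted domain and the annotated neighbour of Cdkn1c, was called in PBS versus Normoxic, and Cdkn1c was not. The difference between the 2 genes was not tested. Its level was 0.201, 0.246 and 0.657 CPM in the Normoxic libraries, 2.29, 1.65 and 2.16 with PBS and 1.88, 2.23 and 1.53 with Gel. All libraries of OIR retinas lay above all Normoxic ones. PBS versus Normoxic gave 5.5-fold, with an interval of 2.89 to 10.5 and a log2 fold change of 2.46 (edgeR adjusted p = 0.00668), which was 3.16 without Normoxic 3 (edgeR adjusted p = 0.00509). Kcnq1ot1, an RNA transcribed from the opposite strand of this locus and looked up after the values of Kcnq1 were seen, had a log2 fold change of -0.11 (edgeR adjusted p = 0.849). No source used here says if strand entered the counting, so reads from this pair cannot be told apart.

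The Cdkn2a gene (Entrez gene 12578) yields 2 proteins from 2 starts, p16 and the p53 activator p19Arf, and one count per gene cannot tell them apart. Each Normoxic library held 1 count, PBS libraries held 19, 2 and 16, and Gel libraries held 1, 4 and 3. The high values came from PBS 1 and PBS 3, while PBS 2 lay within the Gel span. Summed counts were 3, 37 and 8. PBS exceeded Normoxic by a ratio of 11.9 with a counting interval of 3.78 to 60.5, and Gel stood at 0.21 of PBS with an interval of 0.0844 to 0.458. Gel versus Normoxic gave 2.51 with an interval of 0.602 to 14.7. These 95% intervals cover counting error only and leave out the spread between libraries, which for PBS was 0.379 ± 0.28 CPM (SD, n = 3).

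Tests that allow for that spread differed in their call for Cdkn2a. In the edgeR fit without a filter the log2 fold change was 3.41 ± 0.98 for PBS versus Normoxic (adjusted p = 0.0508) and -2.19 ± 0.86 for Gel versus PBS (adjusted p = 0.831, unadjusted 0.0196). DESeq2 called the first (adjusted p = 0.0401) and gave no adjusted p for the second. When PBS 2 was left out, edgeR gave an adjusted p of 0.0109 for PBS versus Normoxic and 0.239 for Gel versus PBS, but that fit drops the PBS library in which the gene was low. Without PBS 1 or PBS 3 the gene did not pass the filter, so in the fits with a library left out it was tested only where both libraries with high counts were present. With any one Normoxic or Gel library left out, the edgeR adjusted p of PBS versus Normoxic lay between 0.052 and 0.165.

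The upstream letters of both Cdkn2a starts, which lie 12427 bases apart, are shown since either could carry these counts. They are from GRCm38.p6, read on the minus strand, with GC boxes in capitals. Start 1 is at chr4:89294620-89294769 and is the p19Arf start, and start 2 is at chr4:89282193-89282342 and is the p16 start.
Cdkn2a start 1: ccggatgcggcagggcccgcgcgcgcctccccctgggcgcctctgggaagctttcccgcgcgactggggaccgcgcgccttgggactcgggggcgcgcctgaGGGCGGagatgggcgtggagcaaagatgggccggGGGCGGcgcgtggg
Cdkn2a start 2: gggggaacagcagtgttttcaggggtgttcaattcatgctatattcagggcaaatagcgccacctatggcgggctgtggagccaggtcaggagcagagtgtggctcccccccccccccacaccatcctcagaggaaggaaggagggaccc
The first held 2 GC boxes in the 150 bases shown and the second held 0. Over these bases the first was 78.7% G or C and the second 60.0%.

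Cdkn2b (Entrez gene 12579), beside Cdkn2a on chromosome 4, encodes p15, an inhibitor that TGF-beta is known to raise. The Normoxic libraries held 2, 12 and 11 counts, those of PBS 52, 29 and 41, and those of Gel 22, 17 and 17. These amount to 0.067, 0.369 and 0.361 CPM for Normoxic, to 1.65, 0.96 and 1.2 for PBS, and to 0.739, 0.485 and 0.501 for Gel. The 3 groups did not overlap: all Gel libraries lay below all PBS libraries and above all Normoxic ones. PBS versus Normoxic gave 4.7-fold, with an interval of 2.14 to 10.3 (edgeR adjusted p = 0.0273). Gel versus PBS gave 0.452-fold with an interval of 0.219 to 0.931, which was not called (edgeR unadjusted p = 0.0341, adjusted p = 0.843). Gel versus Normoxic gave 2.12-fold with an interval of 0.942 to 4.78 (edgeR adjusted p = 0.418). CPM of Gel lay wholly below PBS for 4.93% of all tested genes, and for Cdkn2b alone of the 7.

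The call of Cdkn2b in PBS versus Normoxic rested on few counts and was lost when single libraries were left out. The adjusted p from edgeR was 0.0707, 0.0721 and 0.0729 without Normoxic 1, 2 and 3, and 0.0766 without PBS 1, while the log2 fold change stayed between 1.79 and 2.54. Without PBS 3 it was 2.27 (edgeR adjusted p = 0.0383). Gm12610, a noncoding RNA gene that overlaps Cdkn2b, held 0 counts in Normoxic and 2 in each of the other groups. The counts of Cdkn2b exceed these by far, but reads in the overlap cannot be assigned without strand.

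Cdkn2c (Entrez gene 12580) encodes p18, an Ink4 inhibitor of cells that are leaving the cycle. It stood at 5.69, 5.01 and 5.82 CPM in Normoxic, at 10.7, 8.67 and 12.9 in PBS, and at 5.81, 8.76 and 8.81 in Gel. The PBS libraries lay above all Normoxic ones, and Gel spanned the gap, with Gel 1 at the Normoxic level and Gel 2 and 3 above PBS 2. PBS versus Normoxic gave 1.95-fold, with an interval of 1.43 to 2.67 (edgeR adjusted p = 0.0186). Gel versus PBS gave 0.726-fold with an interval of 0.534 to 0.986 (edgeR unadjusted p = 0.0421, adjusted p = 0.881). Without PBS 3 the log2 fold changes were 0.81 for PBS versus Normoxic (edgeR adjusted p = 0.0342) and -0.30 for Gel versus PBS. The call against Normoxic was lost without Normoxic 1, 2 or 3, at edgeR adjusted p of 0.0679, 0.0886 and 0.062.

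Pdpn (r = 0.992), the gene of the surface protein podoplanin, Rhoc (r = 0.99), a small GTPase gene, and Itgb1 (r = 0.989), the beta 1 integrin gene, followed Cdkn2c most closely over the 9 libraries. The genes nearest to Cdkn2b were Bin2 (r = 0.973), Myd88 (r = 0.97) and Mxra7 (r = 0.965). Among the 7 genes, Cdkn1a and Cdkn2c had an r of 0.84 over the 9 libraries and 0.77 after group means were taken out. For Cdkn2b and Cdkn2c these were 0.70 and -0.20, so the likeness was in the group means. Each r is a description over 9 libraries that share the 3 groups and the difference in gene length trend.

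The upstream letters of Cdkn2b and of both Cdkn2c starts, which lie 1384 bases apart, are shown as those of the other genes called in PBS versus Normoxic. All are on the minus strand in GRCm38.p6. Cdkn2b is at chr4:89311033-89311182, and the Cdkn2c starts are at chr4:109666757-109666906 and chr4:109665373-109665522. Capitals mark GC boxes in the first Cdkn2c start and the hypoxia response core (ACGTG, on either strand) in the second.
Cdkn2b start: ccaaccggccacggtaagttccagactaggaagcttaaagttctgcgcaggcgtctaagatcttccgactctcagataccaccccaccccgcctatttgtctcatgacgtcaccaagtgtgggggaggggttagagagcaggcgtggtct
Cdkn2c start 1: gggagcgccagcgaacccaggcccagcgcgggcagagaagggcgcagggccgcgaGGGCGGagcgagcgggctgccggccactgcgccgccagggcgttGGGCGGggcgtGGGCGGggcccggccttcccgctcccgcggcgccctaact
Cdkn2c start 2: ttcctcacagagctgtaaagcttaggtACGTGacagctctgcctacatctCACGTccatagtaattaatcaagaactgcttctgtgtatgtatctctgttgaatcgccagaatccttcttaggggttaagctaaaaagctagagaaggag
Cdkn2c start 1 held 3 GC boxes in the 150 bases shown and Cdkn2b held 0. Cdkn2c start 2 held 0 GC boxes. From 250 bases before to 50 after it, the core ACGTG was found 4 times on both strands, and 2 of these overlap in an E box (CACGTG) downstream of the start. The core is in 19.6% of the 32851 windows and the E box in 7.15%. No other window of the 6 genes with an entry held either of them, and none of their 9 windows held a TATA box (TATAAA, in 13.6% of windows) or a STAT element (TTCNNNGAA, in 8.3%). No match says only that these letters are not in this window.

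Cdkn2d (Entrez gene 12581) encodes the Ink4 protein p19, unrelated to p19Arf, and had the second highest FPKM of the 7. It stood at 28.5, 30.0 and 27.4 CPM in Normoxic, at 29.7, 24.8 and 38.6 in PBS, and at 26.5, 31.8 and 29.5 in Gel. The groups overlapped. The log2 fold change was 0.12, with an interval of -0.22 to 0.45, in PBS versus Normoxic (edgeR adjusted p = 0.688) and -0.09, with an interval of -0.42 to 0.25, in Gel versus PBS (edgeR adjusted p = 0.987). Without PBS 3 the values were -0.07 and 0.11.

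Libraries of 1 group differed in step for some of the genes but not all. With group means taken out, Cdkn1a and Cdkn2d had an r of 0.8, and Cdkn2b had -0.19 with Cdkn1c and 0.01 with Cdkn2d. PBS 2 was the lowest PBS library for 6 of the 7 genes, all but Cdkn1c, and Gel 1 was the lowest Gel library for 6, all but Cdkn2b. PBS 3 was the highest for 4 of the 7 and PBS 1 for 3. The share of all genes with the same lowest libraries is not given here. Among the 6 tested genes the PBS libraries lay above all Normoxic libraries for Cdkn1a, Cdkn1b, Cdkn2b and Cdkn2c, and below them for none. Such a gap in either direction was found for 29.2% of all tested genes. Gel libraries lay above all Normoxic ones for Cdkn1a and Cdkn2b, against 11.9% of all tested genes. For Cdkn2a, which did not pass the filter, PBS and Gel libraries also lay above all Normoxic ones. There PBS 2 held only 2 counts, and Gel 1 and each Normoxic library held the same single count.

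Marker sums of several cell types also differed between groups, some higher in PBS than in Normoxic and some lower. Marker lists of reactive glia and astrocytes summed to 241 to 284 CPM in Normoxic, 675 to 1230 in PBS and 426 to 573 in Gel. PBS 2, the lowest PBS library for most of the inhibitors, also had the lowest sum of these markers in its group, and Gel 1 the lowest in its own. The same libraries were lowest in their groups for rod markers, at 49200 and 48600 CPM, whereas for pericyte and Muller glia markers PBS 1 was the lowest PBS library. For bipolar markers PBS 2 and Gel 1 were instead the highest in their groups, at 1320 and 1460 CPM. The deviation of PBS 2 and Gel 1 from the mean of the other libraries of their group, in log2 CPM, also varied with gene length. Its Spearman correlation with length was 0.41 and 0.32, the highest in each group. Of the 7 reactive glia and astrocyte genes 6 were called higher in PBS than in Normoxic, among them Gfap and Vim. Over all tested genes 4.31% were called higher in that comparison, the share to set beside this list and those that follow. Microglia and macrophage markers summed to 55.8 to 66.6, 157 to 252 and 117 to 162 CPM in the same order of groups, with 7 of 10 called higher in PBS. Pericyte and smooth muscle markers summed to 118 to 140, 279 to 440 and 192 to 258 CPM, with 5 of 8 called. Endothelial markers summed to 284 to 343, 282 to 373 and 335 to 353 CPM, with 5 of 9 called higher and 1 lower. The gene called lower, Kdr, made up the largest part of the sum, at means of 198, 142 and 164 CPM. The overlap of the endothelial sums therefore does not show that the other endothelial genes were level. Bipolar markers went the other way, at 1670 to 1770, 1070 to 1320 and 1250 to 1460 CPM. So did amacrine markers, at 1560 to 1640, 1140 to 1280 and 1290 to 1360 CPM. Sums of Muller glia markers overlapped between groups, at 4380 to 4680, 3540 to 5250 and 4050 to 5270 CPM. Of the 7 Muller glia genes 2, Aqp4 and Kcnj10, were called lower in PBS, where 6.34% of all tested genes were called in either direction. Aqp4 averaged 80.4 CPM in Normoxic and 50.7 in PBS, and Kcnj10 78.3 and 56.9. Fibroblast markers summed to 25.0 to 72.2, 100 to 113 and 23.3 to 70.6 CPM, and pigment epithelium markers to 36.7 to 95.6, 62.5 to 264 and 136 to 216. Neutrophil markers stayed at 0.643 CPM or less in every library, and Ly6g and S100a8 were at 0 in all Normoxic libraries. The part of these cell types in the levels of the inhibitors was not tested.

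**Figure D4:**
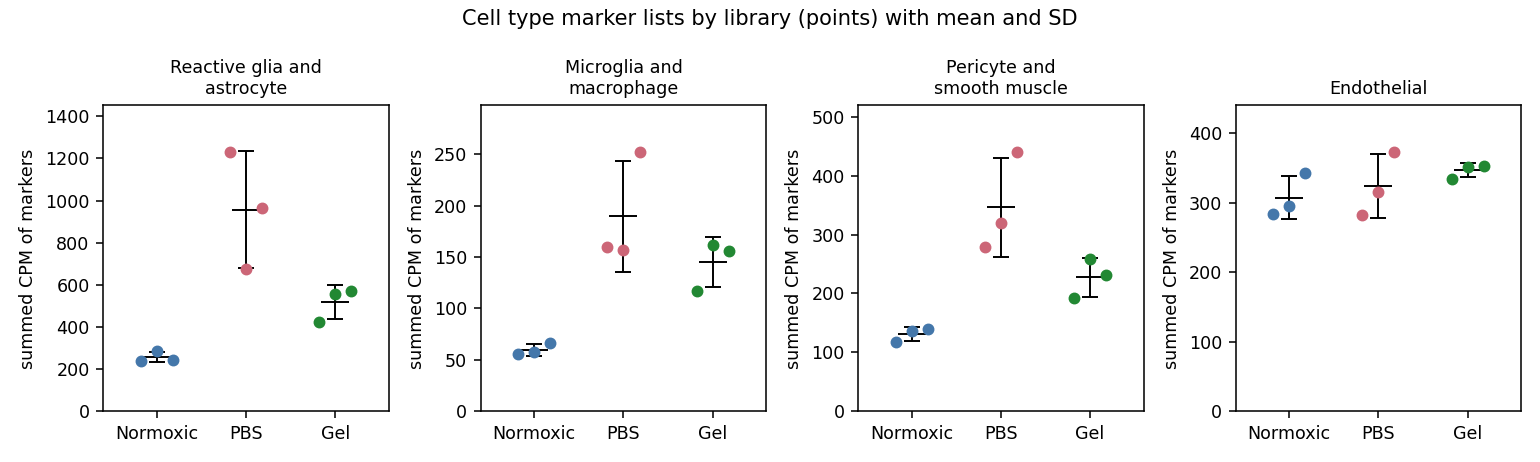
Summed CPM of 4 cell type marker lists in each library (points), with group mean and SD, on axes from 0. Reactive glia, microglia and pericyte sums are higher in every PBS library than in every Normoxic one. Endothelial sums, of which Kdr is the largest part, overlap.

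The kinases and cyclins that the inhibitors act on, and the genes around them, were followed as 7 lists of 115 genes, 108 of which were tested. In PBS versus Normoxic 27 were called, all higher, against the 6.34% of all tested genes, with a median log2 fold change of 0.31 beside 0.01 for all tested genes. In Gel versus PBS 0 were called by edgeR. With edgeR 12 had an unadjusted p under 0.05 there, all of them lower in Gel, against 3.77% of all tested genes. DESeq2 called 2 genes of the lists in Gel versus PBS, and 60 genes in all. The median there was -0.12 beside -0.01. In Gel versus Normoxic 10 were called, all higher, against 1.12% of all tested genes called higher, with a median of 0.21 beside 0.0. Of the 27 calls 13 were kept when any one of the 9 libraries was left out, and of the 10 calls 2 were, among them Igfbp3. The lists were chosen with earlier results of these data known.

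The list of D cyclins and their kinases held 5 genes, of which Cdk4 and Cdk6 encode the kinases that Ink4 proteins bind. Ccnd1 and Ccnd2 were called higher in PBS, where 4.31% of all tested genes were called higher. Cdk4, Cdk6 and Ccnd3 were not called. Ccnd1 averaged 24.7 ± 2.44 CPM in Normoxic, 41.5 ± 3.15 in PBS and 26.4 ± 4.03 in Gel (SD, n = 3). Its log2 fold change was 0.75 ± 0.13 in PBS versus Normoxic (edgeR adjusted p = 0.00824, and 0.0506 without Normoxic 1). In Gel versus PBS it was -0.65 ± 0.13, which edgeR did not call (unadjusted p = 0.000485, adjusted p = 0.351) and DESeq2 did (adjusted p = 0.0105). Ccnd2 averaged 5.96, 13.6 and 8.71 CPM in the 3 groups, with log2 fold changes of 1.19 (edgeR adjusted p = 0.00864) and -0.64 (edgeR adjusted p = 0.676). For both D cyclins all Gel libraries lay below all PBS libraries, against 4.93% of all tested genes. The kinase genes moved little, at 0.23 ± 0.15 for Cdk4 and 0.36 ± 0.21 for Cdk6 on the log2 scale in PBS versus Normoxic, neither called by edgeR (adjusted p = 0.395 and 0.348).

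Some of the later cycle genes were called higher in PBS, where 4.31% of all tested genes were called higher. Of the 11 genes of cyclins E, A and B with their kinases, Ccnb1, Ccnb2 and Cdk1 rose and the other 8 were not called, while none of the 12 tested retinoblastoma and E2F genes was called by edgeR or DESeq2 (2 had an unadjusted p under 0.05, both higher, against 12.3% of all tested genes). Of the 22 genes of S phase and mitosis 9 were called higher, against the same 4.31%: Aurkb, Cdc20, Cdt1, Mcm2, Mcm3, Mcm6, Mki67, Tk1 and Top2a. Only Mki67 and Top2a were called whichever library was left out, and the count of calls was 4, 2 and 3 without Normoxic 1, 2 and 3 and 6 without PBS 3. Mki67, the gene of the proliferation antigen Ki-67, averaged 0.416 ± 0.161 CPM in Normoxic, 3.99 ± 0.531 in PBS and 1.8 ± 0.621 in Gel. Its log2 fold change was 3.24 ± 0.36 in PBS versus Normoxic (edgeR adjusted p = 0.000738) and -1.15 ± 0.31 in Gel versus PBS (unadjusted p = 0.00377, edgeR adjusted p = 0.592). Top2a, a DNA topoisomerase gene of dividing cells, rose by 3.88 ± 0.56 on the log2 scale, Cdk1 by 3.08 ± 0.52 and Ccnb1 by 3.31 ± 0.53 in PBS versus Normoxic. Top2a stood at 4.95 without Normoxic 2 and Cdk1 at 2.40 without PBS 3, both still called. These changes start from few counts: Normoxic libraries summed to 20 for Top2a, 32 for Cdk1 and 8 for Ccnb1, against 312, 292 and 87 in PBS. On log2(FPKM + 1), a scale that compresses low levels, the differences were 0.62 for Top2a, 0.60 for Cdk1, 0.40 for Ccnb1 and 0.41 for Mki67, all called by limma. The PBS group thus had higher levels of several inhibitor genes and of several division genes.

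Of 26 regulators of the inhibitors 3 were called, Stat3, Cebpb and Cebpd, all higher in PBS, where 4.31% of all tested genes were called higher. Only Cebpd was called whichever library was left out. Cebpd, a transcription factor gene of the acute phase response, averaged 7.26 ± 0.701 CPM in Normoxic, 74.9 ± 45.2 in PBS and 31.0 ± 2.24 in Gel. Its log2 fold change was 3.36 ± 0.34 in PBS versus Normoxic (edgeR adjusted p = 0.000518) and -1.27 ± 0.31 in Gel versus PBS (adjusted p = 0.576 with edgeR and 0.0186 with DESeq2). PBS 1 was the highest PBS library for Cebpd, at 127 CPM, and without it these values were 2.75 (edgeR adjusted p = 7.74e-06) and -0.66 (edgeR adjusted p = 0.536). The regulators best known for p21 and p27, singled out here after their values were seen, were not called in PBS versus Normoxic. Trp53, the p53 gene, lay at 17.5 to 18.8 CPM in Normoxic, 21.7 to 23.5 in PBS and 18.3 to 23.0 in Gel, with a log2 fold change of 0.32 ± 0.12 (edgeR adjusted p = 0.148). Mdm2, the gene of the p53 ubiquitin ligase, had 0.07 ± 0.10 (edgeR adjusted p = 0.706), and Skp2 had -0.42 ± 0.19 (edgeR adjusted p = 0.247).

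Of 22 other p53 target genes 3 were called higher in PBS, Phlda3, Gadd45a and Eda2r, where 4.31% of all tested genes were called higher, and the median log2 fold change was 0.13. Without Normoxic 1, 2 or 3 the count was 1, without PBS 3 it was 2, and only Phlda3 was called whichever library was left out. Eda2r held 2 summed counts in Normoxic, 44 in PBS and 23 in Gel. It passed the filter on low counts through the PBS libraries, where it was high, so its call adds little. Phlda3, an inhibitor of AKT signalling, lay at 5.32 to 7.0 CPM in Normoxic, 10.6 to 17.4 in PBS and 10.1 to 13.3 in Gel, with a log2 fold change of 1.28 ± 0.21 in PBS versus Normoxic (edgeR adjusted p = 0.00488).

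Of 17 other genes used to describe senescent cells 16 were found in the table and 11 passed the filter. The 5 below it were Il1a, Il1b, Cxcl1, Ccl2 and Mmp3, genes of secreted proteins of the inflammatory secretory phenotype, and Il6 was not analysed here. Of the 11 tested genes 7 were called higher in PBS, where 4.31% of all tested genes were called higher. Among the 7 were Igfbp3, Igfbp5, Igfbp7, Timp1, Plaur and Hmgb2, and the list median was 1.44. Igfbp3 averaged 6.26 ± 0.904 CPM in Normoxic, 26.5 ± 3.75 in PBS and 21.1 ± 4.06 in Gel (SD, n = 3). Its log2 fold change was 2.08 ± 0.18 against Normoxic in PBS and 1.75 ± 0.18 in Gel (edgeR adjusted p = 0.000229 and 0.00151), and -0.33 ± 0.17 in Gel versus PBS (edgeR adjusted p = 0.973). Timp1, a metalloproteinase inhibitor gene, stood at 0.47, 4.08 and 1.57 CPM in Normoxic, PBS and Gel, with -1.38 ± 0.37 in Gel versus PBS (edgeR adjusted p = 0.592). Hmgb2, the gene of a chromatin protein that falls in senescent cells, singled out after its values were seen, was higher in PBS by 2.08 ± 0.33 (edgeR adjusted p = 0.00497). In Gel versus PBS no gene of the list was called by edgeR or DESeq2. By edgeR 3 had an unadjusted p under 0.05, all lower, against 3.77% of all tested genes.

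**Figure D5:**
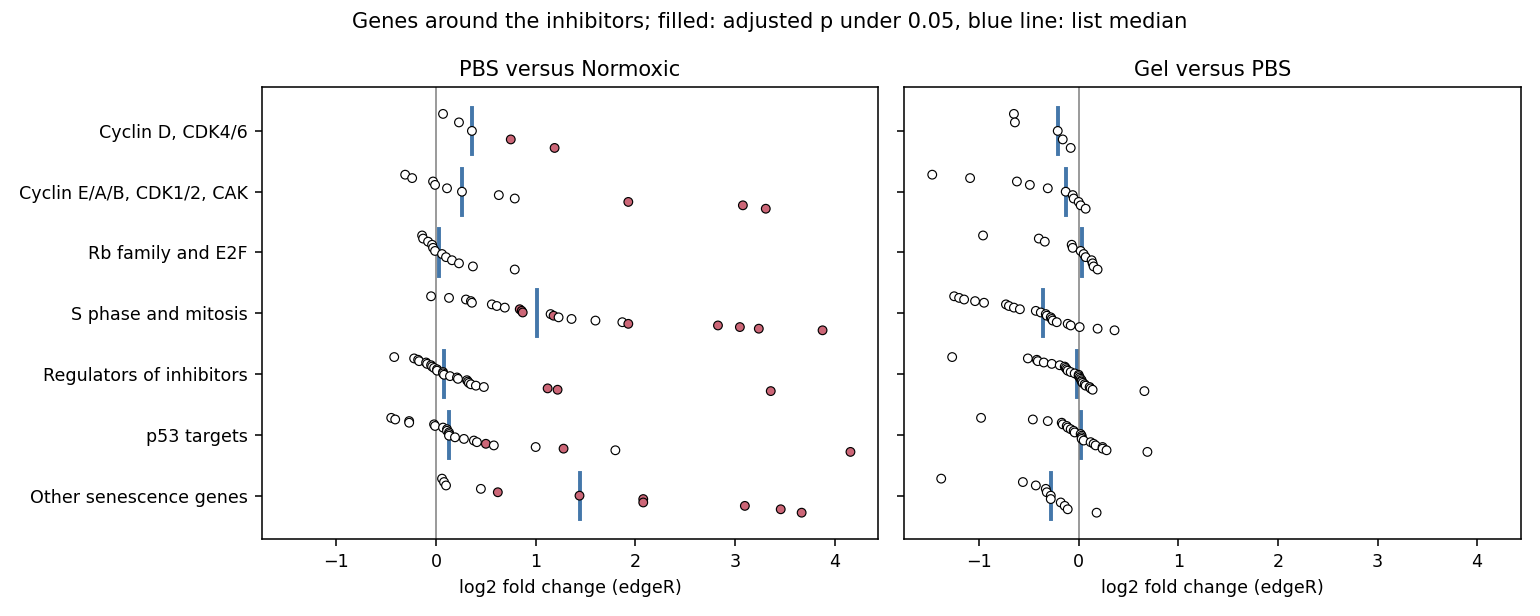
Log2 fold changes from edgeR of the tested genes of the 7 lists, one point per gene, in PBS versus Normoxic (left) and Gel versus PBS (right), filled where the adjusted p is under 0.05, with the list median as a blue line. On the left 27 genes are filled, all to the right of 0, and on the right none is filled and the S phase list has a median of -0.35.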

How the data were processed

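RNA was measured in 9 retina libraries. The count table deposited by the authors holds whole-number counts per gene, and their FPKM table holds the same counts divided by library total and by 1 length per gene. The submitters' processing notes name RSEM 1.3.1, Bowtie2 and DESeq2 1.4.5 as tools and GRCm39 as build, without roles. No source used here says if the counts are rounded estimates. Counts were analysed in R 4.3.3 with edgeR 4.0.16: filterByExpr (minimum count 10, 17362 of 26683 genes kept), TMM scaling, and 1 quasi-likelihood fit over the 9 libraries with no term but group, F tests Benjamini-Hochberg adjusted over kept genes. SE is the log2 fold change divided by the root of F. The test was tried on simulated data. Alternatives were DESeq2 1.42.0, limma 3.58.1 (voom, and log2 FPKM with pseudocounts 0.1 and 1), RLE size factors, other filters, only the compared groups, a replicate block, removal of the gene length trend, and leaving out each library. Counting intervals are exact 95% intervals of a ratio of summed counts. Replicate numbers were not treated as pairs. A correlation of deviations over 0.1 was found for 2 of 9 pairs with the same number (range -0.209 to 0.362). It was found for 2 of 18 pairs with different numbers (range -0.507 to 0.306). Deviations within a group are tied to each other and hold the gene length trend, so these values cannot settle if libraries were paired. Members and lists were chosen with earlier results of these data known. Genes named beyond the 7 are those with the smallest p in each list and the 3 most correlated genes, plus annotated neighbours. From these the ones given with values were picked after the values were seen. Trp53, Mdm2, Skp2, Hmgb2 and Kcnq1ot1 lie outside that rule, as do some genes named only as called. Protein sequences were not analysed here.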

Additional observations from a re-analysis of the deposited data

How the results depend on the processing

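For the 6 tested inhibitor genes in 3 comparisons, 339 alternative values were computed, of which 315 kept direction and call, 8 lost the call and 16 changed sign. For 26 values of other named genes, 488 of 491 did so, with 1 lost call and 2 gained. The sign changes were in genes near 0. For Cdkn1c in PBS versus Normoxic they were -0.0003 with limma-voom, -0.01 on log2(FPKM + 0.1) and on log2(FPKM + 1), and -0.11 with the gene length trend removed. Removing that trend gave Cdkn2d -0.08 in PBS versus Normoxic, 0.05 in Gel versus PBS, and -0.03 against Normoxic in Gel. With only the 2 compared groups in the fit Cdkn2b kept 2.23 in PBS versus Normoxic but lost its call (edgeR adjusted p = 0.0553). With a mean of at least 1 CPM required, Cdkn2b was not tested, so 18 rather than 19 alternatives apply to it.

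Leaving out each library in turn gave, in PBS versus Normoxic, -0.19 to 0.13 for Cdkn1c, 1.79 to 2.54 for Cdkn2b, 0.81 to 1.09 for Cdkn2c and -0.07 to 0.25 for Cdkn2d, with 1 to 4 of the 7 genes called, 455 to 1184 genes called in all and 15 to 27 of the pathway genes. It gave -0.3 to 0.09 for Cdkn1a, -0.22 to 0.11 for Cdkn1c and for Cdkn2d, and 0 to 12 genes called in Gel versus PBS. In Gel versus Normoxic it gave -0.2 to 0.09 for Cdkn1c, -0.04 to 0.1 for Cdkn2d, 47 to 735 genes called and 2 to 17 pathway genes. The number of genes called was 1858, 60 and 769 with DESeq2 in the 3 comparisons, against 1101, 0 and 245. In Gel versus PBS it was 24 without a filter and 3 with the length trend removed. In Gel versus Normoxic it was 389 without a filter, 643 with only the 2 groups and 436 with the length trend removed. Pathway genes called numbered 2 with DESeq2 in Gel versus PBS, and 17 with DESeq2, 17 with only the 2 groups and 6 on log2(FPKM + 1) in Gel versus Normoxic. The cause of these shifts was not tested.

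With the replicate block, which rests on a shared number only, edgeR called 1050, 0 and 227 genes. The block left Cdkn1a at 1.74, Cdkn2b at 2.21 (adjusted p = 0.0482) and Cdkn2c at 0.95 in PBS versus Normoxic, put Cdkn1c at -0.00044, and changed no call of the 7 genes. Depth limits Cdkn2a, with 1 to 19 counts per library, and Cdkn2b, with 2 to 52. Leaving out each library moved the Cdkn2a ratio of PBS to Normoxic between 8.65 and 16.5.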
